A study of Mus musculus with 41 samples.

Results

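Skeletal muscle transcripts were examined in whole mouse endometriosis lesions through 34 listed genes of the sarcomere, the calcium stores and the energy supply of muscle fibres, with the atrophy genes Trim63 and Fbxo32. All 34 were found by symbol among the 21249 genes of the deposited count table, and none was dropped for low counts. By role they comprised 8 genes of the thick filament, 8 of the thin filament, 4 of titin and the Z-disc, 6 of calcium handling, 6 of energy supply and 2 atrophy ligases. Cutting across these roles, 13 are typical of fast fibres and 7 of slow fibres.

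The 41 libraries, in 11 groups, came from lesions made by gluing a uterine punch of 4 mm to the inside of the peritoneal wall of a recipient mouse aged 12 to 16 weeks. From day 7 the recipients received 3 intraperitoneal injections over 6 days, each of 1 µg of IL-33, a cytokine that activates group 2 innate lymphoid cells (ILC2s), or of PBS. Under IL-33 there were 4 libraries each of C57Bl/6J (wild type), Id2fl/fl (floxed), Nmur1iCre-eGFP (Cre) and Nmur1iCre-eGFP Id2fl/fl lesions (deficient, meaning that Cre driven by the ILC2 gene Nmur1 removes Id2). Deficient mice also gave 4 libraries with PBS in place of IL-33, 4 with IL-33 and added PBS, 4 with IL-33 and 250000 ILC2s and 2 with IL-33 and 120000 ILC2s, the cells being injected the day before IL-33. Wild-type mice with IL-33 and 120000 ILC2s gave 3 libraries. In the transfer experiment, 4 libraries came from Cre fragments in deficient recipients and 4 from deficient fragments in Cre recipients, all with IL-33. For every other lesion the labels give a single genotype, and fragment and recipient were assumed to share it. The Id2fl/fl allele is thus carried by floxed and deficient mice and by neither wild-type nor Cre mice. Nothing in the labels states that each replicate is its own animal; a p-value therefore rests on the spread among these libraries, part of which may be technical.

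Skeletal muscle fibres contract when calcium released from the sarcoplasmic reticulum lets myosin thick filaments pull on actin thin filaments, with titin holding both in register. Fast and slow fibres use different genes for the same parts, so the ratio of fast to slow forms reads out the fibre make-up of a tissue. Trim63 (MuRF1) and Fbxo32 (atrogin-1) are ubiquitin ligases that rise when muscle wastes, during fasting, glucocorticoid exposure, denervation or inflammation, under FoxO transcription factors. The inner face of the abdominal wall, to which the fragments were glued, lies against such muscle.

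Library totals were 28.9 to 70.5 mega-counts (median 42.9). In 3 libraries the members held under 0.1% of counts, namely Cre replicate 3, 250000-ILC2 replicate 4 and, in deficient mice, 120000-ILC2 replicate 1. These are called muscle-poor below, and the other 38 muscle-holding; the main results that rest on the 3 are given with and without them. In 4 libraries 10 liver genes held over 1% of counts, namely wild-type replicate 4, Cre replicate 3, deficient replicate 2 and, among wild-type mice given ILC2s, replicate 3. All 32 of 32 further sarcomere and triad genes followed the fast members across libraries within groups, whereas cardiac genes gave mixed readings. Their list (7 of 10 genes read here) summed to 8.65 to 153 CPM, and 3 of the 7 followed the fast members (Actc1, Myh6 and Myl4). Over all genes 9.21% did so. Of the defining genes 2 lay at low levels. Myh6, a cardiac heavy chain, stood at 0.064 to 2.41 CPM, where CPM scales each library to the same total. Tnni3, cardiac troponin I, stood at 0.649 to 7.74 CPM. Whether the muscle lay in the lesion or was taken along with it from the wall was not tested.

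The members held a median of 8.24% of all counts over the 41 libraries. The share was 14.9, 9.46, 7.98 and 5.04% in the wild-type libraries, 15.9, 15.7, 10.2 and 10.2% in the floxed, 2.99, 9.12, 0.0319 and 7.13% in the Cre and 6.79, 2.57, 14.1 and 1.68% in the deficient libraries. In the remaining lesions without fragment exchange it was, in percent, 6.71, 9.0, 0.951 and 6.98 with PBS alone, 16.9, 16.2, 9.39 and 12.6 with IL-33 and added PBS, 3.22, 5.45, 15.9 and 0.0552 with 250000 ILC2s and 0.0464 and 13.1 with 120000 ILC2s in deficient mice, and 14.1, 4.30 and 1.92 with 120000 ILC2s in wild-type mice. Across the exchanged fragments it was 19.2, 9.34, 3.36 and 8.24% for Cre fragments in deficient recipients and 12.0, 3.67, 10.6 and 0.741% for deficient fragments in Cre recipients. The floxed group and the deficient group with added PBS were the most even, with every library at 9.39% or more, while the Cre group ran from 0.0319% to 9.12%. Each of the 11 groups overlapped with others. In bulk lesions, fewer muscle fibres and less RNA per fibre cannot be told apart.

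**Figure D1:**
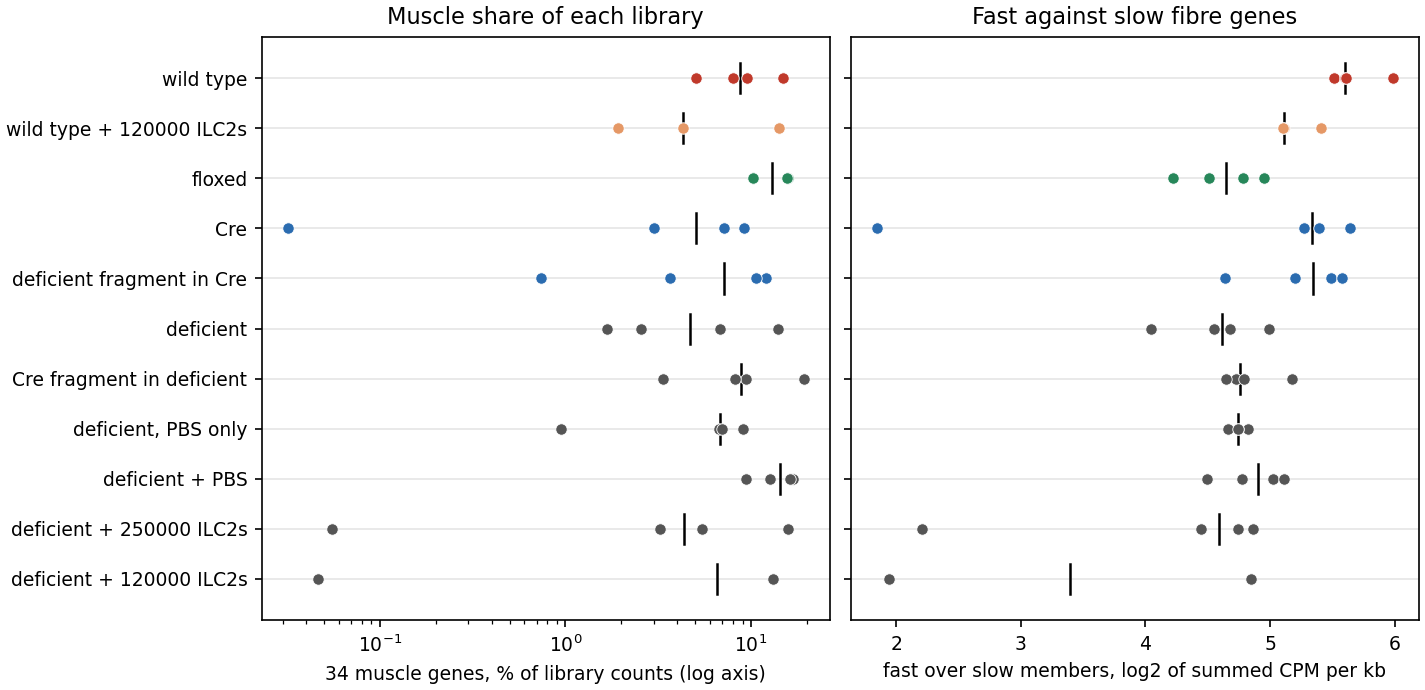
Each point is 1 library, colour marks the recipient (red wild type, orange wild type with ILC2s, green floxed, blue Cre, grey deficient) and the black bar is the group median. Left, the percent of library counts in the 34 members on a log axis, where 3 libraries lie under 0.1%; right, the log2 ratio of summed fast to summed slow members per exon length, where the same 3 libraries lie at 2.21 or lower and the 4 wild-type libraries at 5.51 or higher.

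Titin and the Z-disc took the largest part, with a median of 4.80% of library counts, before the thin filament (1.18%), the thick filament (0.984%), calcium handling (0.843%), energy supply (0.374%) and the atrophy ligases (0.0290%). Ttn alone, the giant spring that runs from the Z-disc to the middle of the sarcomere, held a median of 56.2% of the members' counts. Ttn stood at 86334, 54674, 45513 and 28885 CPM in the wild-type libraries, 89653, 87829, 58500.1 and 56508 in the floxed, 16840.0, 50768, 20.7 and 39984 in the Cre and 37396, 14402, 79421 and 9501 in the deficient libraries. In exchanged fragments Ttn was at 108385, 51974, 19188 and 46673 for Cre fragments in deficient recipients and 68915, 20646, 61759 and 4036 for deficient fragments in Cre recipients. The 2 highest libraries of all were a Cre fragment in a deficient recipient and one with added PBS, and no IL-33-treated genotype stood clear of the others. Elsewhere the Ttn level in CPM was 37352, 49389, 5241 and 39268 with PBS alone, 94378, 92662, 52510.1 and 73325 with IL-33 and added PBS, 18619, 31043, 86007 and 10.2 with 250000 ILC2s and 53.4 and 72029.7 with 120000 ILC2s in deficient mice, and 82167, 23935 and 10749 with 120000 ILC2s in wild-type mice. Counts grow with the length of a transcript, so genes were compared per kilobase of exon, where Ttn ranked only ninth of the 34 with a median of 400 CPM per kilobase.

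The order of levels per kilobase placed Acta1, the actin of the skeletal thin filament, first with a median of 2978 CPM per kilobase. Atp2a1 (SERCA1, the fast calcium pump) followed at 1443, Myh4 at 852, Ckm (muscle creatine kinase) at 643 and Pvalb (parvalbumin, a calcium buffer of fast fibres) at 541. The fast troponin T Tnnt3 stood at 487 and the fast light chains Myl1 and Mylpf at 458 and 438. The highest slow member, Myh7, was 25th at 46.9. The slow light chains Myl2 and Myl3 stood at 24.1 and 11.6, the slow troponins Tnnc1, Tnnt1 and Tnni1 at 42.3, 16.3 and 12.8, and Casq2, the slow-fibre and cardiac calsequestrin, at 11.3. Fbxo32 was 28th at 36.5 and Trim63 last at 11.2. In the middle lay glycogen phosphorylase Pygm (333), alpha-actinin 3 Actn3 (310), beta-enolase Eno3 (234), nebulin Neb (220), myoglobin Mb (170) and the ryanodine receptor Ryr1 (83.8).

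Among genes of the thin filament, Acta1 shows how far single libraries lay apart. Acta1 stood at 6587, 4574, 3566 and 2076 CPM in the wild-type libraries, 9971, 9758, 5779.5 and 6343 in the floxed, 1442, 4576, 37.2 and 3723 in the Cre and 4447, 1626, 8507 and 1152 in the deficient libraries. After exchange of fragments it was at 11087, 6159, 2245 and 5149.7 for Cre fragments in deficient recipients and 6073, 2049, 5329.9 and 454 for deficient fragments in Cre recipients. The floxed libraries were all high, and the lowest Cre library lay far below every other of these groups. In the other groups Acta1 was at 4335, 6044, 686 and 4286 with PBS alone, 11394, 10500.2, 5791 and 7120.3 with IL-33 and added PBS, 1807, 3484, 9878 and 75.1 with 250000 ILC2s and 30.2 and 8515 with 120000 ILC2s in deficient mice, and 7039, 2416 and 977 with 120000 ILC2s in wild-type mice. Over all libraries it ran from 30.2 to 11394 CPM.

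The 3 muscle-poor libraries kept very unequal remnants of the members. Between 15 and 20 of the 34 lay under 1 CPM there, among them 5 to 9 of the 13 fast members, and Tnnc2 (fast troponin C) had no count in 2 of them and Pvalb none in 1. At these depths a count of 0 allows up to 3 counts per library, for counting error alone. Fbxo32 was the exception, at 154.1 CPM in the Cre library, 374 in the library with 250000 ILC2s and 313 in the library with 120000 ILC2s, the last 2 above its median of 254 CPM over all libraries. It made up 48.3%, 67.8% and 67.4% of the members' counts in these 3 libraries, against a median of 0.517% over all libraries. The next best kept were Casq2, at up to 13.6% of its median in the muscle-holding libraries, Trim63 at up to 6.06%, Tnnt1 at up to 5.02% and Pygm at up to 3.03%; the fast calcium pump Atp2a1 and the heavy chain Myh4 reached 0.0528% and 0.056%.

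The myosin heavy chains name the fibre type: Myh7 marks slow type I fibres, Myh2 type IIA, Myh1 type IIX and Myh4 the fastest type IIB. On GRCm38, Myh2 (chr11:67171027-67197517), Myh1 (chr11:67200052-67224575) and Myh4 (chr11:67238029-67260446) stand in a row on the plus strand of chromosome 11, and Myh7 lies on the minus strand of chromosome 14 (54970684 to 54994626), where it overlaps the antisense gene Mhrt. The sequences before their RefSeq start sites are shown for Myh4, the highest of the 4, and Myh2, whose share set wild-type and deficient recipients apart. Both are the 250 bases before the start on GRCm38.p6, plus strand, in lower case; capitals mark E-boxes (CANNTG, the site of myogenic factors such as MyoD), the MCAT element (CATTCC, either strand, bound by TEAD factors), the FoxO core (TGTTTAC, either strand) and the MEF2 site.
Myh4 chr11:67237562-67237811: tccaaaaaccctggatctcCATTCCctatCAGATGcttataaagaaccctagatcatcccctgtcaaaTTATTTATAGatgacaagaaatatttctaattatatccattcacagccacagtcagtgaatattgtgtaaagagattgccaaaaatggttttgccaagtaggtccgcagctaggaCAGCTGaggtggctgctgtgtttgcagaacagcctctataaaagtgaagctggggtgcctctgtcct
Myh2 chr11:67170777-67171026: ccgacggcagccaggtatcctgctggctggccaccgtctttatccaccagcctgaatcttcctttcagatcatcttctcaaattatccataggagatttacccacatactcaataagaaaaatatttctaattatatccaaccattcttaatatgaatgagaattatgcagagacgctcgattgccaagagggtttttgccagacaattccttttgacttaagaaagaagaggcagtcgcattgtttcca
The Myh4 stretch held 2 E-boxes, 1 MCAT element and 1 MEF2 site, and the Myh2 stretch held none of the 4 motifs. Over 32851 RefSeq promoter windows of this length, 66.2% held an E-box, 12.6% an MCAT element, 2.9% a MEF2 site and 3.2% a FoxO core. Of 33 windows that matched 27 of the 34 members (Fbxo32 had no entry), 87.9% held an E-box, 30.3% an MCAT element, 18.2% a MEF2 site and 3.0% a FoxO core. A match describes the letters only.

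As a share of the 4 chains per exon length in the 38 muscle-holding libraries, Myh4 made up 40.7% to 74.9% (median 64.4%) and Myh7 1.69% to 5.97% (median 3.69%). The type IIA chain is given first. Myh2 stood at 4.87, 4.85, 4.21 and 3.91% in the wild-type libraries, 13.2, 8.14, 5.26 and 11 in the floxed, 4.38, 3.93, 4.74 and 4.80 in the Cre and 11.7, 10.9, 9.62 and 16.5 in the deficient libraries. With fragments exchanged it made up, in percent, 8.02, 11.8, 13.4 and 10.9 for Cre fragments in deficient recipients and 5.96, 5.71, 6.88 and 8.27 for deficient fragments in Cre recipients. By recipient, wild-type mice ran from 3.91% to 6.15% in 7 libraries and Cre mice from 3.93% to 8.27% in 7, whereas deficient mice ran from 8.02% to 16.5% in 20 and floxed mice from 5.26% to 13.2% in 4. Deficient and wild-type recipients did not overlap, and 1 of the Cre recipients' libraries, replicate 4 of the deficient fragments, entered the deficient range. For this and the other comparisons of ranges below, the share of all genes that separate the same libraries was not counted. In the groups not yet given the Myh2 share in percent was 9.56, 13.6, 15.3 and 11.8 with PBS alone, 12.8, 10.6, 9.51 and 8.98 with IL-33 and added PBS, 14.9, 12.6, 11.3 and 14.3 with 250000 ILC2s and 38.6 and 10.2 with 120000 ILC2s in deficient mice, and 5.54, 5.24 and 6.15 with 120000 ILC2s in wild-type mice. The 38.6%, and the 4.74% and 14.3% of the other muscle-poor libraries, rest on few counts.

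Among the same 4 chains Myh4 stood at 73.8, 71.0, 74.9 and 68.5% in the wild-type libraries, 40.7, 57.7, 60.9 and 48.3 in the floxed, 71.4, 68.3, 81.9 and 74.9 in the Cre and 59.4, 68.1, 66.1 and 44.8 in the deficient libraries. Its share in exchanged fragments was, in percent, 72.4, 55.4, 53.3 and 67.2 for Cre fragments in deficient recipients and 63.8, 67.6, 65.5 and 63.0 for deficient fragments in Cre recipients. Wild-type libraries were high and all 4 floxed libraries low, with no overlap between those 2 groups. For Myh4 the share in percent was 65.5, 50.1, 55.6 and 60.2 with PBS alone, 59.3, 60.2, 64.7 and 67.3 with IL-33 and added PBS, 52.0, 55.0, 60.9 and 34 with 250000 ILC2s and 10.3 and 64.1 with 120000 ILC2s in deficient mice, and 66.5, 68.7 and 70.1 with 120000 ILC2s in wild-type mice. The muscle-holding deficient libraries spanned 44.8% to 72.4% and overlapped the wild-type range. The type IIX chain Myh1 stood at 18.8, 22.5, 18.8 and 25.4% in the wild-type libraries, 40.1, 30, 30 and 35.9 in the floxed, 21.8, 24.7, 5.92 and 18.0 in the Cre and 24.7, 17.6, 19.5 and 32.8 in the deficient libraries. For exchanged fragments the Myh1 share in percent was 15.5, 28, 29.3 and 18.9 for Cre fragments in deficient recipients and 27.7, 23.8, 25.3 and 25.2 for deficient fragments in Cre recipients. The floxed group had the highest group median of Myh1 among groups of 4 with muscle, though single deficient libraries reached its range. Myh1 in the groups left made up, in percent, 20.9, 32.1, 25.8 and 23.8 with PBS alone, 23.0, 25.8, 22.3 and 19.3 with IL-33 and added PBS, 28.6, 28.5, 23.5 and 16.1 with 250000 ILC2s and 46.9 and 21.9 with 120000 ILC2s in deficient mice, and 24.4, 23.2 and 21.1 with 120000 ILC2s in wild-type mice. The slow chain Myh7 stood at 2.49, 1.69, 2.10 and 2.20% in the wild-type libraries, 5.97, 4.15, 3.84 and 4.80 in the floxed, 2.39, 3.07, 7.42 and 2.32 in the Cre and 4.17, 3.44, 4.84 and 5.90 in the deficient libraries. In the transfer experiment Myh7 was, in percent, 4.13, 4.74, 3.98 and 2.94 for Cre fragments in deficient recipients and 2.51, 2.84, 2.30 and 3.54 for deficient fragments in Cre recipients. By recipient its median share was 2.49% in wild-type, 2.51% in Cre, 4.14% in deficient and 4.48% in floxed mice. Myh7 took, in percent, 4.11, 4.15, 3.29 and 4.19 with PBS alone, 4.82, 3.29, 3.39 and 4.46 with IL-33 and added PBS, 4.55, 3.89, 4.28 and 35.6 with 250000 ILC2s and 4.18 and 3.80 with 120000 ILC2s in deficient mice, and 3.57, 2.91 and 2.71 with 120000 ILC2s in wild-type mice. In the muscle-poor libraries the Myh4, Myh1 and Myh7 shares rest on few counts, as those of Myh2 do. The 35.6% of Myh7 with 250000 ILC2s comes from 3 Myh7 counts. Reads can be shared among these chains, since 18.9% to 26.9% of the 50-base stretches of the 4 transcripts recur in other genes.

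**Figure D2:**
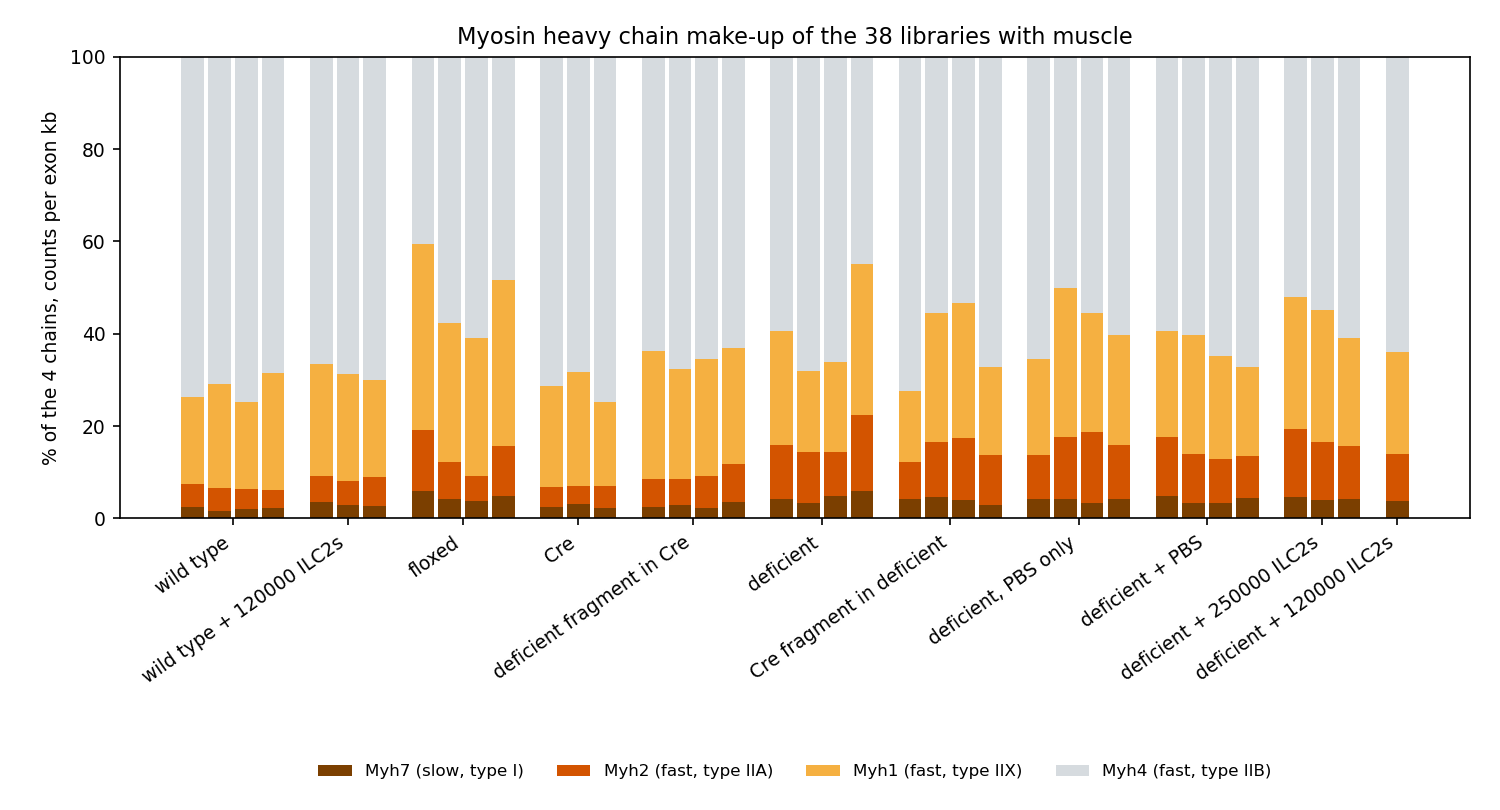
Each bar is 1 of the 38 muscle-holding libraries, stacked to 100% of the counts per exon kilobase in Myh7, Myh2, Myh1 and Myh4. The Myh2 band is thin in wild-type and Cre recipients (3.91% to 8.27%) and thicker in deficient recipients (8.02% to 16.5%); the grey Myh4 band is smallest in a floxed library (40.7%).

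The other fast and slow forms were compared by the log2 ratio of summed fast to summed slow members per exon length, a description with no test. Its median was 4.86 over the muscle-holding libraries, and 4.90 with the heavy chains left out. The ratio stood at 5.51, 5.99, 5.6 and 5.61 in the wild-type libraries, 4.22, 4.95, 4.78 and 4.51 in the floxed, 5.4, 5.27, 1.85 and 5.64 in the Cre and 4.68, 4.99, 4.55 and 4.04 in the deficient libraries. In exchanged fragments it stood at 4.73, 4.64, 4.79 and 5.17 for Cre fragments in deficient recipients and 5.49, 5.20, 5.58 and 4.64 for deficient fragments in Cre recipients. The 7 muscle-holding libraries of wild-type recipients ran from 5.11 to 5.99 (median 5.51) and those of Cre recipients from 4.64 to 5.64 (median 5.4). Deficient recipients ran from 4.04 to 5.17 (median 4.75) and floxed recipients from 4.22 to 4.95 (median 4.65). Elsewhere the ratio was 4.82, 4.75, 4.67 and 4.75 with PBS alone, 4.5, 5.03, 5.11 and 4.77 with IL-33 and added PBS, 4.44, 4.87, 4.75 and 2.21 with 250000 ILC2s and 1.94 and 4.84 with 120000 ILC2s in deficient mice, and 5.11, 5.11 and 5.41 with 120000 ILC2s in wild-type mice. The 3 muscle-poor libraries gave the 3 lowest ratios.

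Single pairs of genes gave the same order of recipients. Troponin I, which holds the thin filament off, has a fast form (Tnni2) and a slow form (Tnni1). Tnni2 stood at 601, 364, 359 and 209 CPM in the wild-type libraries, 635, 752, 407 and 405 in the floxed, 129, 416, 1.95 and 310.4 in the Cre and 324, 102, 573 and 68.4 in the deficient libraries. Its slow partner Tnni1 stood at 54.8, 24.3, 27.1 and 19.4 CPM in the wild-type libraries, 183, 112.1, 103 and 84.7 in the floxed, 11.9, 45.9, 0.113 and 25.4 in the Cre and 58.2, 15.2, 114 and 17.7 in the deficient libraries. Both were lowest in the muscle-poor Cre library, and floxed libraries were high for both. For Tnni2 the exchanged fragments gave 860.1, 439, 143 and 379 for Cre fragments in deficient recipients and 466.3, 151.2, 406 and 35.6 for deficient fragments in Cre recipients. Tnni1 was there at 145, 77.6, 26.8 and 44.2 for Cre fragments in deficient recipients and 55.7, 18.8, 43.1 and 4.59 for deficient fragments in Cre recipients. As the log2 of Tnni2 over Tnni1, the median was 4.69 in wild-type, 4.44 in Cre, 3.75 in deficient and 3.38 in floxed recipients. Tnni2 in the other groups was at 284, 380.3, 39.3 and 288 with PBS alone, 677, 647, 387 and 527 with IL-33 and added PBS, 119.9, 215, 892 and 1.63 with 250000 ILC2s and 1.67 and 663 with 120000 ILC2s in deficient mice, and 567, 191 and 88.0 with 120000 ILC2s in wild-type mice. The matching Tnni1 levels were 47.4, 78.1, 7.22 and 55.7 with PBS alone, 142, 103, 55.4 and 102 with IL-33 and added PBS, 26.8, 38.3, 156.2 and 0.277 with 250000 ILC2s and 0.451 and 103 with 120000 ILC2s in deficient mice, and 69.2, 18.7 and 8.39 with 120000 ILC2s in wild-type mice. The slow light chain Myl2 was set against Ckm, which both fibre types express. Per 1000 Ckm counts, Myl2 stood at 17.9, 11.4, 14.1 and 15.1 in the wild-type libraries, 56.4, 29.0, 31.1 and 47.9 in the floxed, 18.9, 19.5, 8.58 and 15.7 in the Cre and 38.2, 32.4, 46.8 and 63.1 in the deficient libraries. In exchanged fragments this ratio was 40.1, 43.2, 38.5 and 25.0 for Cre fragments in deficient recipients and 20.6, 18.0, 18.2 and 28 for deficient fragments in Cre recipients. Over muscle-holding libraries it ran from 11.4 to 23.3 in wild-type and 15.7 to 28 in Cre recipients, and from 25.0 to 63.1 in deficient and 29.0 to 56.4 in floxed recipients.

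Of the energy supply, Ckm served as the measure of muscle amount below. Ckm stood at 2789, 1873, 1497 and 941 CPM in the wild-type libraries, 3011, 3394, 1919.6 and 2227 in the floxed, 621, 1991, 5.29 and 1533 in the Cre and 1520.4, 618, 3345 and 357 in the deficient libraries. It was in exchanged fragments at 4718, 2134, 702 and 1879 for Cre fragments in deficient recipients and 2318, 807, 2091 and 166 for deficient fragments in Cre recipients. The wild-type libraries lay inside the range of the Cre and deficient libraries together, while every floxed library lay above the median of all 41 (1873 CPM). Ckm elsewhere was at 1679, 2064, 208 and 1617 with PBS alone, 3896, 3676, 2337 and 3084 with IL-33 and added PBS, 616, 1229, 3541 and 0.623 with 250000 ILC2s and 0.558 and 3016 with 120000 ILC2s in deficient mice, and 2969, 952 and 412 with 120000 ILC2s in wild-type mice. The other members of energy supply, Pygm, Eno3, Cox6a2 (a muscle form of cytochrome oxidase), Pgam2 (phosphoglycerate mutase) and Mb, had medians of 1072, 406, 44.1, 111.6 and 254 CPM, and their highest library stood 2.45 to 3.48 times above the median.

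Trim63 lies on chromosome 4 (chr4:134315120-134329629, plus strand) and Fbxo32 on chromosome 15 (chr15:58175879-58214932, minus strand). The stretch before Trim63 is shown because it is the 1 of the 33 member windows with a FoxO core, Fbxo32 not being among them, written as above (GRCm38.p6, plus strand, RefSeq).
Trim63 chr4:134314870-134315119: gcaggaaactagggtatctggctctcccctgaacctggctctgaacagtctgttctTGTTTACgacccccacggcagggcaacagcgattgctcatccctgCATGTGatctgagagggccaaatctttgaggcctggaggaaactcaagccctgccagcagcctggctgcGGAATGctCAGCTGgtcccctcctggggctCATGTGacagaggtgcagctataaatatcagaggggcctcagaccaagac
It also held 3 E-boxes and 1 MCAT element, the latter on the minus strand. For comparison, the same length before Ckm, the muscle measure used here, held 1 E-box and none of the others.
Ckm chr7:19410844-19411093: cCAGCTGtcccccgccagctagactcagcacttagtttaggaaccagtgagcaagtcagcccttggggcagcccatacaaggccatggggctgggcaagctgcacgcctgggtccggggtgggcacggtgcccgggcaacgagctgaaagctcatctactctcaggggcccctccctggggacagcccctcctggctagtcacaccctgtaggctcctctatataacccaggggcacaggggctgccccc
Whether a factor binds either stretch was not measured here.

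Trim63 stood at 663, 221, 261 and 270.0 CPM in the wild-type libraries, 39.1, 32.0, 26.5 and 23.7 in the floxed, 42.2, 54.8, 0.567 and 146 in the Cre and 26.4, 12.8, 45.5 and 7.12 in the deficient libraries. In exchanged fragments it stood at, in CPM, 87.4, 34.4, 15.6 and 32.2 for Cre fragments in deficient recipients and 56.1, 23.8, 37.8 and 2.88 for deficient fragments in Cre recipients. All 4 wild-type libraries stood above the other 34 muscle-holding libraries, whose highest, at 203 CPM, was a wild-type library given ILC2s. Trim63 in the other groups was at 15.5, 28.6, 4.73 and 21.6 with PBS alone, 43.8, 54.9, 24.5 and 29.6 with IL-33 and added PBS, 10.1, 14.5, 57.9 and 0.658 with 250000 ILC2s and 2.02 and 63.6 with 120000 ILC2s in deficient mice, and 203, 57.1 and 16.6 with 120000 ILC2s in wild-type mice. Trim63 had the widest range of the members in proportion to its level, its highest library standing 20.7 times above its median of 32.0 CPM. Fbxo32 stood at 1536, 842, 813 and 616 CPM in the wild-type libraries, 372, 254, 159.8 and 334 in the floxed, 383, 471, 154.1 and 711 in the Cre and 179, 160.0, 246 and 161 in the deficient libraries. Exchanged fragments gave Fbxo32 levels of 278, 220.3, 185 and 452 for Cre fragments in deficient recipients and 450.2, 258, 385 and 155 for deficient fragments in Cre recipients. Here 2 libraries outside the wild-type IL-33 group, 1 Cre and 1 wild-type library with ILC2s, exceeded its lowest. Fbxo32 otherwise stood at 188, 316, 111.7 and 241 with PBS alone, 176, 209.8, 213 and 144 with IL-33 and added PBS, 196, 158.4, 255 and 374 with 250000 ILC2s and 313 and 226 with 120000 ILC2s in deficient mice, and 971, 452 and 118 with 120000 ILC2s in wild-type mice.

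Both ligases were also set against Ckm, to read Trim63 per amount of muscle. For Fbxo32 the ratio does not give a level per amount of muscle. Fbxo32 kept 154.1 to 374 CPM in the muscle-poor libraries, so its ratio is also high where Ckm is low. Per 1000 Ckm counts, Trim63 stood at 238, 118, 174 and 287 in the wild-type libraries, 13, 9.42, 13.8 and 10.6 in the floxed, 67.9, 27.5, 107.3 and 95.2 in the Cre and 17.4, 20.7, 13.6 and 19.9 in the deficient libraries. The Trim63 ratio in exchanged fragments was 18.5, 16.1, 22.2 and 17.1 for Cre fragments in deficient recipients and 24.2, 29.4, 18.1 and 17.3 for deficient fragments in Cre recipients. The 4 wild-type libraries, at 118 or more, stood above the other 34 muscle-holding libraries (highest 95.2, a Cre library), whereas the floxed and deficient ranges overlapped. The same ratio was 9.23, 13.9, 22.8 and 13.4 with PBS alone, 11.2, 14.9, 10.49 and 9.59 with IL-33 and added PBS, 16.4, 11.8, 16.4 and 1056 with 250000 ILC2s and 3615 and 21.1 with 120000 ILC2s in deficient mice, and 68.4, 59.9 and 40.2 with 120000 ILC2s in wild-type mice. The 1056 and 3615 come from libraries with under 1 CPM of Ckm and do not describe muscle. By recipient the median of Trim63 per 1000 Ckm counts was 118 in wild-type, 27.5 in Cre, 16.2 in deficient and 11.8 in floxed mice, and that of Fbxo32 was 475, 320, 115 and 103.

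**Figure D3:**
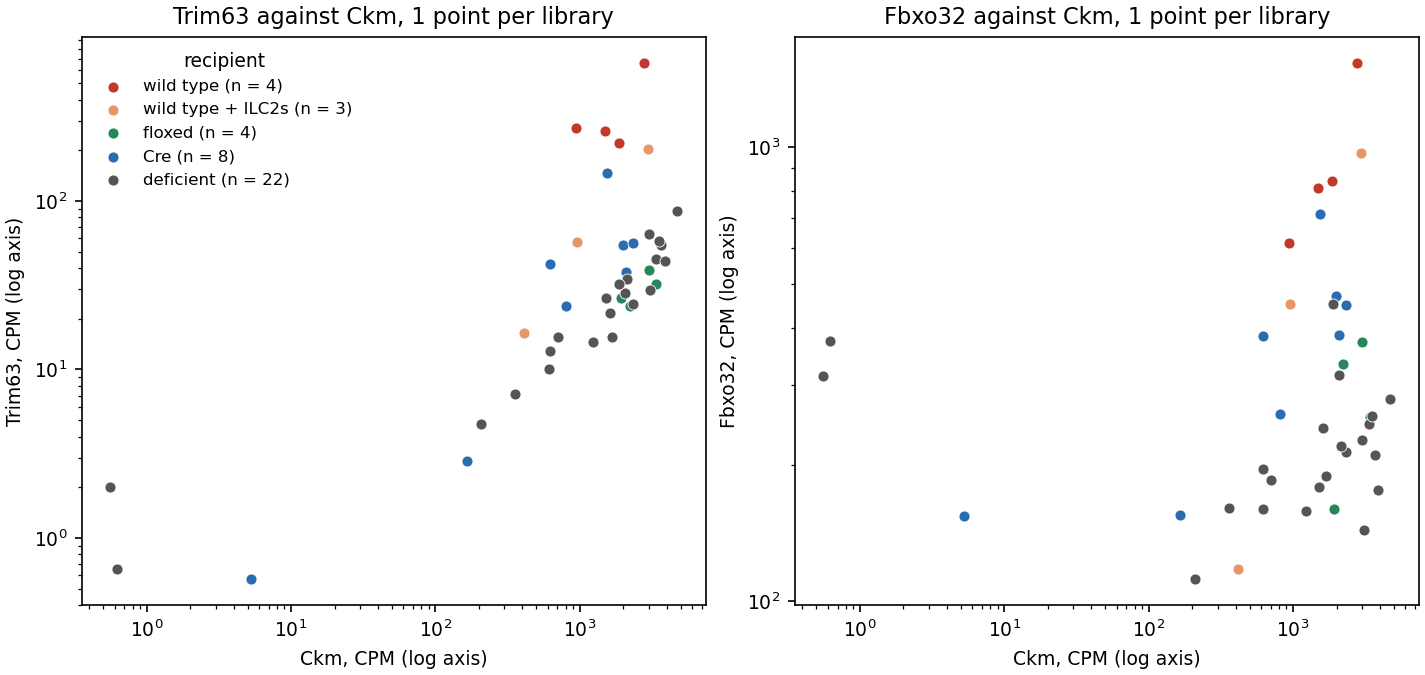
Each point is 1 library, with Ckm in CPM on the x axis and Trim63 (left) or Fbxo32 (right) in CPM on the y axis, all on log axes; colour marks the recipient. The 3 lowest Trim63 points are those of the muscle-poor libraries and the 4 wild-type points lie above the other muscle-holding libraries, whereas Fbxo32 stays between 154.1 and 374 CPM in the 3 libraries with almost no Ckm.

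Which genes moved with fast muscle within groups was asked with edgeR's quasi-likelihood test of a slope on fast fibre content, the mean log2 CPM of the 13 fast members, in a model that also held the 11 group means. A slope of 1 means a doubling with each doubling of fast muscle. Of all 21249 genes, 15.4% passed the adjusted p of 0.05 (9.21% upward), and 20 of the 21 members outside the fast list rose, against a median slope of -0.01 over all genes. The slow heavy chain Myh7 rose with a slope of 1.05 ± 0.03 (SE), and Ttn, Ckm and Mb with 1.07, 1.00 and 0.98. The slow light chains Myl2 and Myl3 rose with 0.91 and 0.77, the slow troponins Tnni1, Tnnc1 and Tnnt1 with 0.82, 0.77 and 0.53, Trim63 with 0.63 ± 0.05 and Casq2 with 0.36 ± 0.04. Fbxo32, at 0.07 ± 0.04, did not pass (adjusted p = 0.224). Without the 3 muscle-poor libraries the slopes of the 21 drew together: 19 lay between 0.90 and 1.04, Casq2 stood at 0.58 ± 0.08 and Fbxo32, now past the threshold, at 0.40 ± 0.06 (adjusted p = 1.97e-05). Trim63 stood at 0.93 ± 0.07 in that fit. Without replicate 4 of the group given 250000 ILC2s alone, Fbxo32 also passed (0.17 ± 0.05, adjusted p = 0.0110).

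**Figure D4:**
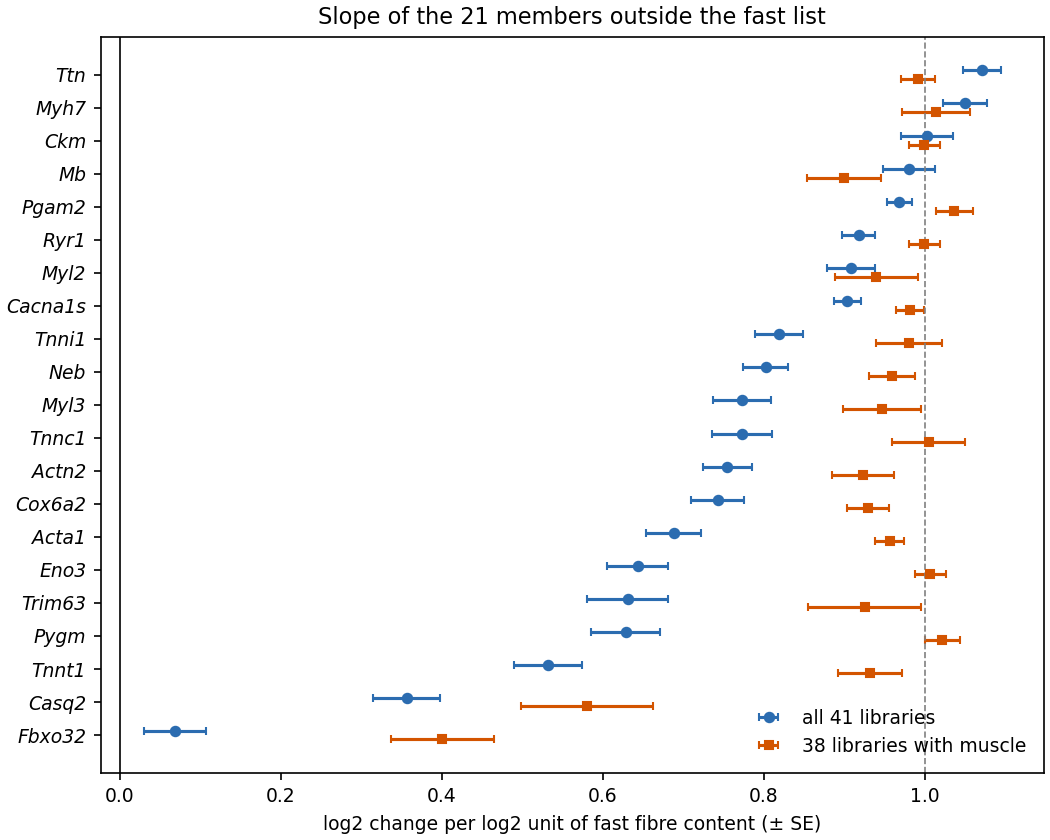
Slope of each of the 21 members outside the fast list on fast fibre content, with SE bars, in all 41 libraries (blue circles) and in the 38 muscle-holding libraries (orange squares). In the 38 libraries most lie near the dashed line at 1, with Casq2 (0.58) and Fbxo32 (0.40) below it.

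Slopes were also read for genes outside the list. Over all genes 9.21% rose, and the smooth muscle and adipocyte counts below lie near that share. Among the other genes of smallest p with a positive slope were Rpl3l (0.94), Tcap (0.95), Cacng6 (0.98), Myom2 (1.02), Dhrs7c (1.06), Mypn (0.90), Trim54 (1.04), Nctc1 (1.01) and Ampd1 (0.99). Tcap, Myom2 and Mypn build the sarcomere, and Trim54 is a close relative of Trim63. Of 14 genes of satellite cells and muscle formation 13 rose (median 0.75; Myod1 0.97, Myog 0.74), all but Tnnt2, and of 11 genes of the nerve-muscle junction and of denervation 7 rose (median 0.24; Chrna1 0.60). Of 18 further atrophy genes 8 rose (median 0.04; Pdk4, a FoxO target that spares glucose, 0.56), and of 8 Schwann cell genes 6 rose. Of 10 smooth muscle genes 2 rose, of 7 cardiac genes 3 (Actc1 0.67, Myh6 0.37, Myl4 0.33), of 10 adipocyte genes 1, and of the mesothelial, liver and epithelial lists none.

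Between groups, the test on group means asked whether genotype, IL-33, ILC2s or the recipient went with a difference in each member. In deficient against the mean of wild-type, floxed and Cre lesions (called competent) 11% of all genes passed (6.24% higher, 4.72% lower), and of the members only Fbxo32 (log2 difference -1.45 ± 0.40 SE, adjusted p = 0.0162). The 34 members had a median of -0.20, against -0.01 over all genes, the fast members -0.44 and the slow members 0.25. In wild type against the mean of Cre and floxed lesions 2.65% of all genes passed (1.73% higher) and 2 members, both higher in wild type: Trim63 by 3.14 ± 0.89 (8.84-fold, adjusted p = 0.0489) and Fbxo32 by 1.53 ± 0.37 (2.89-fold, adjusted p = 0.0239). These 2 calls are fragile: neither passed without wild-type replicate 1 (2.60 and 1.14) or without the 4 liver libraries (3.01 and 1.52), and Trim63 passed in 3 of the 12 fits that leave out 1 library. Fbxo32 in deficient lesions did not pass without deficient replicate 2 or 4 (-1.36 and -1.35).

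In the other 8 comparisons edgeR called 0 of the 34 members, and DESeq2 also 0. These were IL-33 against PBS in deficient mice (0.00941% of all genes passed, member median 0.24), 250000 ILC2s against added PBS (0% of genes, -1.07), 120000 ILC2s in deficient mice (0%, 0.16), 120000 ILC2s in wild-type mice (0%, -0.27), deficient against Cre recipients (11.3%, of which 6.29% lower, 0.79), deficient against Cre fragments (0.00471%, -0.14), Cre against floxed (0.329%, -1.80) and added PBS against IL-33 alone (0.0141%, 1.21). At an unadjusted p of 0.05, 4 members passed for Cre against floxed (Casq2, Tnnt1, Tnni1 and Actn2, all lower in Cre), where 14.5% of all genes did, 2 for the recipient (Myl2 higher and Fbxo32 lower in deficient recipients; 25.4% of genes) and 0 for the remaining 6 (1.88% to 16.4% of genes). The members' shares lie below those of all genes. For Cre against floxed the SE of single members was large: Acta1 differed by -1.80 ± 1.15 and Ckm by -1.44 ± 1.36, so a difference in muscle amount was not detectable at this spread. Added PBS, where all 34 members had a positive value, gave SEs as large (Ckm 1.28 ± 1.35).

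The slow and atrophy members were then compared at equal fast fibre content, with the covariate in the model, which lowered the typical variation between libraries (biological coefficient of variation 0.465 without and 0.418 with it). Only the 7 slow members, Trim63 and Fbxo32 are read here. In deficient against competent lesions 12.8% of all genes passed (5.78% lower) and 3 of the 9: Myl2 was higher by 0.92 ± 0.18 (1.89-fold, adjusted p = 0.00102), Trim63 lower (-1.84 ± 0.40, 3.58-fold, adjusted p = 0.00273) and Fbxo32 lower (-1.44 ± 0.38, 2.71-fold, adjusted p = 0.0126). Myh7 did not pass (0.39, adjusted p = 0.0889). The slow members had a median of 0.35, against -0.01 over all genes. Trim63 and Myl2 passed in all 16 fits that leave out 1 library, and Fbxo32 in all but the fit without deficient replicate 4 (-1.36, adjusted p = 0.0674). Without the 3 muscle-poor libraries 6 of the 9 passed (12.1% of all genes), Myl3, Tnnc1 and Tnni1 joining Myl2 as higher.

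The competent genotypes were not alike, so each was set against the deficient lesions alone, a split made after the values were seen. Against wild type, 9.82% of all genes and 5 of the 9 members passed, with Trim63 at -3.89 ± 0.48 (adjusted p = 6.02e-06), Fbxo32 at -2.43 ± 0.45 (adjusted p = 0.000928), Myl2 at 1.43 ± 0.23 (adjusted p = 0.000199), Tnni1 at 0.79 ± 0.24 and Myh7 at 0.72 ± 0.19. Against Cre lesions, 5.76% of genes and 2 of the 9 passed, Trim63 (-1.83 ± 0.45, adjusted p = 0.0163) and Myl2 (1.18 ± 0.24, adjusted p = 0.00435). Against floxed lesions 8.27% of genes passed but 0 of the 9 members in edgeR, and 1 at an unadjusted p of 0.05 (25.2% of genes); Trim63 stood at 0.20 ± 0.44, Fbxo32 at -0.58 ± 0.43 and Myl2 at 0.14 ± 0.22. Leaving out the 3 muscle-poor libraries, 7 of the 9 passed against wild type (11.3% of genes), 4 against Cre (5.52%; Tnni1 at 0.74 and Fbxo32 at -1.43 joined) and 0 against floxed (6.82%). The 3 competent genotypes thus contributed unequally to the contrast with their mean. Wild-type and floxed libraries are named in runs apart from the deficient ones, so naming run and genotype cannot be told apart against either. The contrast with the mean shares this limit. Cre and deficient libraries share a naming run, in which their names are mixed. DESeq2 was not run with the covariate.

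The control genotypes differed among themselves in some of these genes. In Cre against floxed lesions 0.292% of all genes passed and 2 of the 9: Tnni1 was lower in Cre (-1.20 ± 0.26, 2.29-fold, adjusted p = 0.0250) and Trim63 higher (2.03 ± 0.46, 4.08-fold, adjusted p = 0.0435), with Myl2 just short (-1.04 ± 0.25, adjusted p = 0.0558). The Trim63 call rests on Cre replicate 4 among others, passing in 2 of the 8 fits that leave out 1 library; without replicate 4 it was 1.40 ± 0.46 (adjusted p = 0.389), though it was 2.67 without the 3 muscle-poor libraries (adjusted p = 4.5e-05). In that fit 0.518% of genes and 3 of the 9 passed, with Tnni1 at -0.96 and Fbxo32 now higher in Cre (1.38, adjusted p = 0.0344). In wild type against Cre and floxed 5.42% of all genes passed and 3 of the 9: Trim63 by 3.07 ± 0.36 (8.40-fold, adjusted p = 1.60e-05), Fbxo32 by 1.5 ± 0.36 (2.82-fold, adjusted p = 0.0192) and, lower in wild type, Myl2 by -0.77 ± 0.20 (1.71-fold, adjusted p = 0.0281). Trim63 passed in all 12 fits that leave out 1 library (2.85 to 3.37) and Myl2 in 8 of 12; Fbxo32 failed without wild-type replicate 1 (1.14, adjusted p = 0.0818). Against floxed alone (6.31% of genes) 5 of the 9 passed, with Trim63 at 4.08 ± 0.49, and against Cre alone (0.0612%) 0 passed, with 2 at an unadjusted p of 0.05 (11.5% of genes) and Trim63 at 2.06 ± 0.46 (adjusted p = 0.0751). Without the 3 muscle-poor libraries 4 of the 9 passed against Cre and floxed together (6.91% of genes), 8 against floxed alone (9.68%) and 1 against Cre alone (0.08%), the last being Trim63 at 1.67 ± 0.34 (adjusted p = 0.0437). The 7 libraries of wild-type mice carry names starting with S and the other 34 names starting with F, and the floxed libraries form a run of their own, so naming run and genotype cannot be told apart here. In wild type against Cre and floxed 8 of 10 liver genes were also higher at equal fast fibre content, but 0 of 10 by group means. Their summed level ran from 6.63 to 51567 CPM in wild-type and from 1.35 to 51385 in Cre and floxed libraries. Its median was 10.8 CPM in wild-type, 13.8 in Cre and 1.83 in floxed libraries. Without the 4 liver libraries Trim63 (2.87) and Fbxo32 (1.52) still passed and Myl2 did not (-0.79, adjusted p = 0.0903).

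The transfer experiment separates the recipient from the fragment, and it shares the deficient and Cre groups with the comparisons above. For deficient against Cre recipients, 13.8% of all genes passed (6.64% higher) and 3 of the 9 members, all slow and all higher: Myl2 by 1.02 ± 0.17 (2.03-fold, adjusted p = 0.00015), Tnni1 by 0.65 ± 0.17 (1.57-fold, adjusted p = 0.0106) and Myl3 by 0.65 ± 0.21 (1.57-fold, adjusted p = 0.0405). Leaving out 1 library at a time, Myl2 and Tnni1 passed in all 16 fits and Myl3 in 7 of 16. The slow members had a median of 0.53, against 0.02 over all genes. Trim63 (-0.90 ± 0.31, adjusted p = 0.05002) and Fbxo32 (-0.73 ± 0.31, adjusted p = 0.109) did not pass. Without the 3 muscle-poor libraries 7 of the 9 passed (15.5% of genes), with Myh7 and Tnnc1 also higher, Trim63 at -1.16 ± 0.22 (adjusted p = 0.000707) and Fbxo32 at -0.95 ± 0.21 (adjusted p = 0.00247). For the fragment's genotype 0 of the 9 passed in edgeR, against 0.00471% of all genes, and 1 at an unadjusted p of 0.05 (4.23% of genes; Trim63, -0.93 ± 0.31, adjusted p = 0.999). Of 10 adipocyte genes 3 (Lep, Retn and Adipoq) were higher in deficient lesions and 3 in deficient recipients, with the list's summed level at 84.6 to 1105 CPM in deficient, 118 to 1884 in competent, 84.6 to 1105 in deficient-recipient and 95.5 to 975 in Cre-recipient libraries; of 10 liver genes 0 and 3 were higher. By group means 0 of the 10 liver genes were higher in deficient recipients. The part of these adipocyte and liver genes in the differences of the members was not tested.

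Within each fragment genotype the recipient difference of Myl2 was close: 0.96 ± 0.24 for Cre fragments (4.94% of genes passed, adjusted p = 0.0191) and 1.08 ± 0.23 for deficient fragments (6.01%, adjusted p = 0.00485). The difference between these 2 values was 0.13 ± 0.33 (adjusted p = 0.922). Trim63 stood at -1.41 ± 0.45 for Cre fragments (adjusted p = 0.0647) and -0.40 ± 0.43 for deficient fragments (adjusted p = 0.616), a difference of 1.00 ± 0.62 that did not pass (adjusted p = 0.643). With the 3 muscle-poor libraries left out, of which 1 is in the Cre group, 3 of the 9 passed for Cre fragments (4.94% of genes): Myl2 (0.90), Trim63 (-1.92 ± 0.33, adjusted p = 0.00107) and Fbxo32 (-1.17 ± 0.31, adjusted p = 0.0263). For deficient fragments 4 passed in that fit (8.52% of genes), Myl2, Myl3, Tnni1 and Tnnc1, all higher, and Trim63 stood at -0.39 ± 0.30. The differences between fragments were not fitted without those libraries. Each group of exchanged fragments is named in a run apart from the lesions without exchange. Within a fragment genotype, naming run and recipient therefore cannot be told apart.

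**Figure D5:**
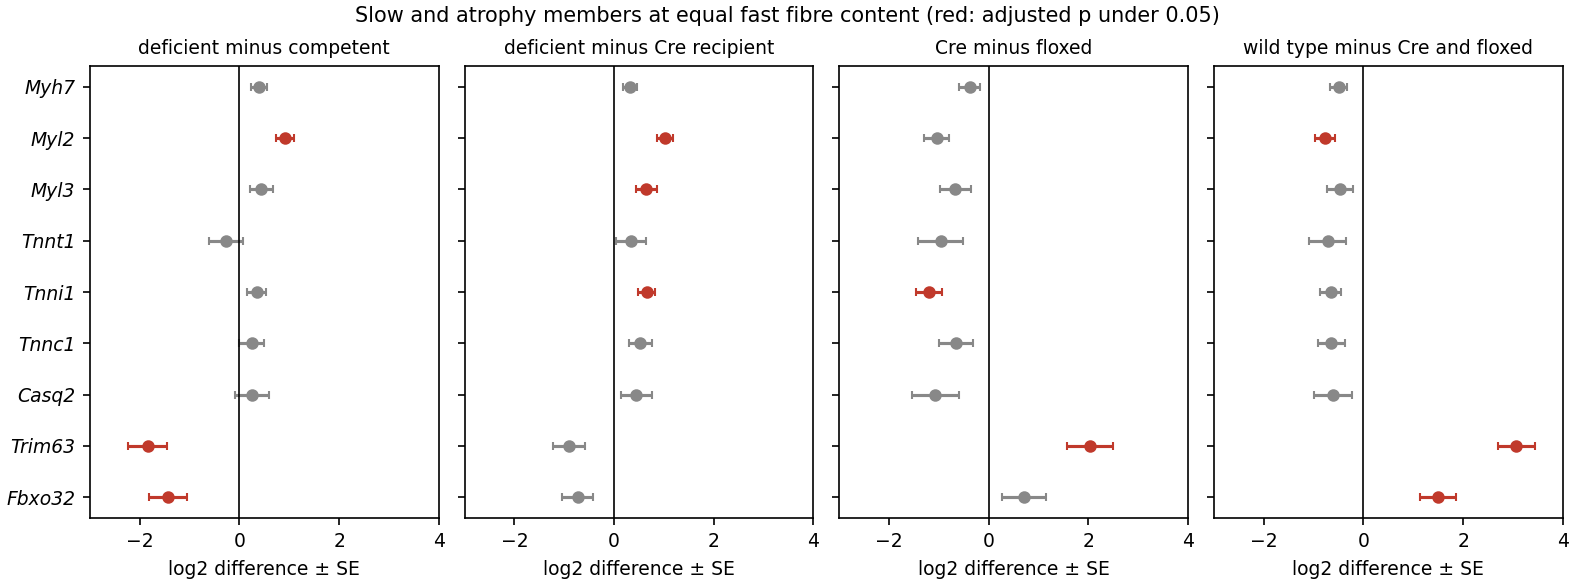
Log2 differences with SE at equal fast fibre content for the 7 slow members, Trim63 and Fbxo32 in 4 comparisons, red where the adjusted p is under 0.05. Myl2 lies to the right in deficient lesions (0.92) and deficient recipients (1.02) and to the left in wild type (-0.77), and Trim63 lies farthest right in wild type (3.07).

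With Ckm in place of the fast members as the covariate, the fast genes can be read too, since only Ckm is then used. The 33 members then had a median of 0.39 for deficient against Cre recipients (0.02 over all genes) and -0.67 for Cre against floxed (-0.01). For deficient against competent lesions it was -0.06 (-0.01) and for wild type against Cre and floxed -0.10 (0.01). Whether Ckm itself shifted against the other members was not tested. In deficient against competent lesions 12.5% of all genes and 6 of 33 members passed: Myh2 (1.00, adjusted p = 0.043), Myl2, Mb and Pgam2 were higher and Trim63 and Fbxo32 lower. In deficient against Cre recipients 13.5% of genes and 11 of 33 members passed, all higher, among them Myh2 (1.11, adjusted p = 0.013), Myh7, Myl2, Myl3, Tnnc1, Tnni1 and Mb, genes of slow or oxidative fibres, but also the fast light chains Myl1 and Mylpf, Casq1 and Pgam2. In Cre against floxed 0.414% of genes and 4 of 33 members passed, all lower in Cre (Actn2, Myl2, Pgam2 and Tnni1), and in wild type against Cre and floxed 4.72% and 3 (Trim63 and Fbxo32 higher, Pgam2 lower).

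Neither IL-33 nor transferred ILC2s gave an edgeR call among the 9 at equal fast fibre content. At an unadjusted p of 0.05, 2 passed for 120000 ILC2s in deficient mice (Myh7 and Trim63; 4.21% of genes), 1 for 120000 ILC2s in wild-type mice (Trim63; 4.07%) and 0 for IL-33 (7.26%), 250000 ILC2s (4.56%) and added PBS (13.4%). In deficient mice 1 of the 2 libraries with 120000 ILC2s is muscle-poor, and without it neither gene passed at that level (Trim63 went from 1.65 to 0.24, Myh7 from -0.65 to -0.37). For IL-33 against PBS in deficient mice 0.0188% of all genes passed, for 250000 ILC2s 0%, for 120000 ILC2s in deficient mice 0% and for added PBS 0.0141%. For 120000 ILC2s in wild-type mice 0.00471% of genes passed, and Trim63 stood at -1.94 ± 0.49 (adjusted p = 0.638). Without the 3 muscle-poor libraries, none of which is in either wild-type group, Trim63 there was -1.88 ± 0.34 and passed (adjusted p = 0.0353, 0.0188% of genes). With those libraries kept and 1 wild-type library left out at a time, Trim63 passed in 0 of 7 edgeR fits (lowest adjusted p = 0.129). Per 1000 Ckm counts Trim63 was 118 to 287 in the 4 wild-type libraries and 40.2 to 68.4 in the 3 given ILC2s, and the groups did not overlap. How many of all genes separate these groups was not counted. The difference between the effect of 120000 ILC2s in deficient and in wild-type mice was 3.59 ± 0.75 for Trim63 and did not pass (adjusted p = 0.578), in a fit that holds the muscle-poor library. In deficient mice, PBS alone, added PBS and 120000 ILC2s carry library names in runs apart from IL-33 alone. In wild-type mice, libraries with and without ILC2s also fall in separate naming runs. Naming run and treatment therefore cannot be told apart in these comparisons. Libraries with 250000 ILC2s and with added PBS share a naming run, in which their names are mixed.

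Other genes of muscle wasting, outside the members, were also read at equal fast fibre content. In deficient against competent lesions 5 of 18 further atrophy genes were lower and 0 higher, beside 5.78% of all genes lower: Eif4ebp1 (-0.84 ± 0.14), a brake on translation, Pdk4 (-1.90 ± 0.45), Bnip3 (-0.94 ± 0.23), a mitophagy receptor, and Mt2 (-1.54 ± 0.48) had the smallest p. The list's median was -0.41, against -0.01 over all genes. These genes were not set against each competent genotype alone. Mean Eif4ebp1 was 27.6 CPM in deficient, 31.0 in floxed, 51.1 in Cre and 63.6 in wild-type lesions. In the same order mean Mt2 was 17.0, 20.2, 61.7 and 76.5 CPM and mean Pdk4 115, 259, 300 and 1136 CPM, without adjustment for fast fibre content. In deficient against Cre recipients 7 were lower (7.13% of all genes), led by Eif4ebp1 (-0.93 ± 0.12), Bnip3 (-0.85 ± 0.20) and Fkbp5 (-0.81 ± 0.20), a glucocorticoid target, and 1, the transcription factor Foxo1, was higher (0.61 ± 0.14). In wild type against Cre and floxed 3 were higher (3.81% of all genes), Pdk4 (2.07 ± 0.41), Eif4ebp1 (0.68 ± 0.14) and Fkbp5 (0.88 ± 0.23). In Cre against floxed, of the 18, only Eif4ebp1 passed (0.81 ± 0.17), beside 0.292% of all genes. Many of these genes are expressed outside muscle, and 10 of the 18 had no called slope on fast fibre content.

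Of the 32 further sarcomere and triad genes, 6 passed in deficient against competent lesions, where 12.8% of all genes did, 5 of them lower (among them Mypn -0.68 ± 0.13 and Tcap -0.46 ± 0.12) and the kinase gene Mylk4 higher (1.25 ± 0.24). In deficient against Cre recipients (13.8% of all genes) 5 were lower, among them Tcap (-0.58 ± 0.10) and Mypn (-0.61 ± 0.11), and Mylk4 (1.14 ± 0.23) and Myoz2 (0.61 ± 0.15), the slow-fibre partner of the fast member Myoz1, were higher. In wild type against Cre and floxed (5.42% of all genes) Lmod2 (1.44 ± 0.21) and Nrap (0.51 ± 0.16) were higher and Sln (-1.36 ± 0.33), an inhibitor of the calcium pump, lower. Of the 11 genes of the nerve-muscle junction and of denervation 0 passed in deficient against competent lesions or for the recipient, beside the same 12.8% and 13.8% of all genes, and in wild type 1, Hdac4, was lower (-0.34 ± 0.08), beside 1.61%.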

How the data were processed

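The deposited table holds raw read counts per gene for 41 lesions; per the submitters' processing notes the authors used Trimmomatic, STAR and HTSeq on GRCm38, and edgeR and limma. Their versions, order, strand setting and annotation are not given in the sources used here. No gene of the table totals fewer than 411 counts, by a rule not stated. Counts were fitted as deposited with edgeR 4.0.16 (R 4.3.3): TMM normalization, 1 mean per group, quasi-likelihood F-test with Benjamini-Hochberg adjustment over all 21249 genes, threshold 0.05. A second fit added the mean log2 CPM (prior count 2) of the 13 fast members. SE is the size of the log2 difference divided by the square root of F. CPM per kilobase uses merged exons of GRCm38. No gene was filtered in the main fits. A simulated table with known changes was used to test the fits. Its spread between libraries was smaller than in these data, so it does not show how the fits perform here. Alternatives were DESeq2 1.42.0 and its size factors, library sizes without the members, a low-count filter, only the groups compared, a replicate block, Ckm as covariate and leaving out each library. Fits without the 3 muscle-poor or 4 liver libraries, pairs of genotypes and differences of effects were added after seeing the data.

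The members and lists were chosen with earlier results of these data known. Named genes are the members, for which values in each library are given for Acta1, Ckm, Ttn, the 4 heavy chains, Tnni1, Tnni2, Trim63 and Fbxo32, and the called genes of the other lists. Myl2 per 1000 Ckm counts was added after its values were seen. Same-numbered replicates did not deviate together more than others. Of same-numbered pairs of libraries 66 of 191 correlated above 0.1 (median 0.0127, range -0.70 to 0.87). Of different-numbered pairs 192 of 571 did (median -0.002, range -0.81 to 0.94). No 2 libraries of 1 group agreed within counting noise (58 pairs; pairs across groups were not checked). Depth of 28.9 to 70.5 mega-counts leaves counting error small beside the spread between libraries except in the muscle-poor 3.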

Additional observations from a re-analysis of the deposited data

Results flagged for a closer look

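Of 72 sets of 4 libraries checked for a value far from the other 3, 5 gave one; chance gives about 1 in 20. Trim63 in wild-type replicate 1 stood at 663 CPM, against 270.0 in the nearest library of its group. The log2 ratio of fast to slow members was 1.846 in Cre replicate 3, where the nearest stood at 5.271, and 2.207 in replicate 4 of the group given 250000 ILC2s, where the nearest stood at 4.442. That last library also gave 1056 Trim63 counts and 166.7 Myl2 counts per 1000 Ckm counts, against 16.44 and 53.21 in the nearest, with Ckm itself at 0.623 CPM. The 2 libraries with low ratios are among the 3 that hold under 0.1% of counts in the members.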

How the results depend on the processing

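The number of members called in wild type against Cre and floxed lesions, 2 in the report (2.65% of all genes), was 1 with the replicate block, 0 with only the groups compared, 0 without the 4 liver libraries and 0 to 2 when each library was left out. In deficient against competent lesions (11% of all genes in the report) it was 0 to 1 on leaving out a library. The shares of all genes under these other settings are not given here. Genes that followed fast fibre content numbered 3280, 2123 with the replicate block and 2311 to 3739 on leaving out a library. The calls among slow and atrophy members at equal fast fibre content, 11 over all comparisons, became 21 without the 3 muscle-poor libraries and 8 to 14 on leaving out a library. Without the 3 muscle-poor libraries the share of all genes called moved too. It went from 13.8% to 15.5% for the recipient and from 5.42% to 6.91% for wild type against Cre and floxed. For Cre against floxed it went from 0.292% to 0.518%, and for deficient against competent lesions from 12.8% to 12.1%. Trim63 between recipients by group means, not called, ran from -0.794 to 0.0735 and changed sign only without Cre replicate 4. With the block, Trim63 at equal content in Cre against floxed no longer passed (1.97, adjusted p = 0.0570), nor with Ckm as covariate (1.66, adjusted p = 0.224). No pairing of samples by replicate number was detected, with 11 of 41 libraries correlating best with their own number. This check cannot exclude a weak pairing. Of the values of single genes under settings other than leaving out 1 library, 222 kept their direction and call, 7 gained and 10 lost a call; on leaving out 1 library 630 kept both, 6 gained, 38 lost and 1 changed sign. Causes were not tested. Few member counts limit the muscle-poor libraries, and groups of 2 to 4 limit the rest.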
